A study of Mus musculus with 40 samples.

Results

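Proneural genes encode basic helix-loop-helix (bHLH) transcription factors, and 9 of them were described here through the peaks of 2 histone marks at their promoters. The 9 genes were Neurog1, Neurog2, Neurog3, Neurod1, Neurod2, Neurod4, Neurod6, Atoh1 and Ptf1a, taken by name from 55536 annotated mouse genes. The promoter was the stretch between 2000 bp before and 1000 bp after any annotated transcript start on mm10. H3K4me3 and H3K27me3 were profiled by chromatin immunoprecipitation and sequencing (ChIP-seq) in cultured oligodendrocyte precursor cells (OPCs), and each mark had 10 peak lists.

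The OPCs came from brainstem or from dorsal telencephalon (cortex, corpus callosum and hippocampus together, labelled cortex) of litters labelled AMGFAP-Cre;K27M, for which the study's methods write hGFAP-Cre, at postnatal day 5 to 7. K27M cultures carried the H3.3 K27M mutation, a lysine-to-methionine substitution knocked in at the H3-3a gene and switched on by Cre in neural stem and progenitor cells and their progeny. Control cultures came from littermates; for the controls of its single-cell experiment the study's methods describe the K27M allele as silenced by its stop cassette in the absence of Cre. Tissue was pooled by region and genotype, so that a culture was a pool of animals rather than 1 animal. Cells were selected on a PDGFRa antibody after a lectin step against endothelium and microglia, and were kept in proliferation medium without differentiation. Brainstem had cultures 59 and 61 and telencephalon had cultures 59, 60 and 61, each as a control and a K27M culture carrying the same number, which gave 5 matched pairs per mark. A p-value across these pairs sets a difference against the spread between cultures, and treats the 5 pairs as independent. Numbers 59 and 61 occur in both regions. Whether same-numbered cultures of different regions came from the same litters is not stated. If they did, the pairs are not all independent. The tests between genotypes and between regions did not take these shared numbers into account.

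Proneural factors pair with widely expressed E-proteins, bind E-box DNA motifs and start neuronal differentiation, while Id and Hes proteins oppose them. In the glial lineage their genes are largely silent, and such developmental regulators are often held by Polycomb, the complex that writes H3K27me3, at CpG-rich promoters. A promoter with H3K27me3 together with H3K4me3, the mark of active and poised starts, is called bivalent. K27M lowers H3K27me3 over most of the genome by blocking the Polycomb methyltransferase, and H3K27me3 is kept best at strong Polycomb sites.

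The number of peaks ranged from 20961 to 31200 for H3K4me3 and from 4739 to 64808 for H3K27me3, and the genome covered by H3K27me3 peaks ranged from 13.3 to 152 Mb. Read depth is not part of the peak lists, so a missing peak says that none was called and not that the mark was absent. Fold enrichment also differed by library: the median highest H3K4me3 fold enrichment at promoters was 4.09 and 6.48 in control and K27M telencephalon culture 59, against 60.9 and 49.4 in telencephalon control cultures 60 and 61. All 7 OPC markers examined (Pdgfra, Cspg4, Olig1, Olig2, Sox10, Ptprz1 and Gpr17) had an H3K4me3 promoter peak in 10 of 10 libraries and an H3K27me3 peak in none. Of the 4 microglia markers, none had an H3K4me3 promoter peak in any library. Of the 3 endothelium markers Cldn5 had one in 5 libraries, and Pecam1 and Cdh5 in none. Of the 8 neuron markers 6 had an H3K4me3 peak in all 10 libraries, and 5 had an H3K27me3 peak in all 10, against 28.7% and 3.28% of all genes. Of the 4 astrocyte markers, Slc1a3 had an H3K4me3 peak in 10 libraries, Gfap and Aldh1l1 in 6 each and Aqp4 in 1. Among these markers the control class differed between regions at Slc17a6, Gfap, Tmem119 and Cldn5, and fewer K27M than control libraries had H3K27me3 at Syt1 and Aldh1l1 (4 control, 0 K27M) and at Snap25 and Slc1a3 (2 and 0). The part of other cells in the results below was not tested.

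The promoters differed in their sequence, and 5 of them are shown because they span the range of CpG content over which the marks differed. Neurog1 and Atoh1 carried both marks, Neurod2 carried H3K27me3 throughout and an H3K4me3 promoter peak in 2 libraries, Neurod6 had H3K27me3 in part of the libraries, and Neurod4 was almost free of peaks. Each line gives the 250 bases upstream of the RefSeq transcript start (GRCm38.p6, the mm10 assembly), read 5′ to 3′ on the gene's strand, with CpG dinucleotides in capitals.
Neurog1: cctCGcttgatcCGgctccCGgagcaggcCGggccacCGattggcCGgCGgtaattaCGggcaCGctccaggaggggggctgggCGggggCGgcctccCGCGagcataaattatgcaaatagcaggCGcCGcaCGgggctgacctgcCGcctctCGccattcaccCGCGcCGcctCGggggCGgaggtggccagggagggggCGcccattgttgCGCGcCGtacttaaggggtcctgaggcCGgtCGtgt
Atoh1: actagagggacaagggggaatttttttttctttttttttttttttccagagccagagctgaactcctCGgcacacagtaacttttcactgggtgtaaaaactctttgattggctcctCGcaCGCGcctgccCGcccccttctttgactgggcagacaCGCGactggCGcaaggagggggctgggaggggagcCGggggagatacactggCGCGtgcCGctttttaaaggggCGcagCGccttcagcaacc
Neurod2: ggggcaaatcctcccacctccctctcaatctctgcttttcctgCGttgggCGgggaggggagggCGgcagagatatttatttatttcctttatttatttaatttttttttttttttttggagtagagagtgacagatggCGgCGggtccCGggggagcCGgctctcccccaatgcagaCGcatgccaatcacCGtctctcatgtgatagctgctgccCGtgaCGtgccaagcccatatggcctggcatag
Neurod6: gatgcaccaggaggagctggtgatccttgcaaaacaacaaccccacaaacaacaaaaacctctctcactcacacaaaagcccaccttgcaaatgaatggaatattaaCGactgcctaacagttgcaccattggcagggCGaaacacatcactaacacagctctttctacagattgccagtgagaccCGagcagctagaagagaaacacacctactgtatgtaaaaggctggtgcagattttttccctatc
Neurod4: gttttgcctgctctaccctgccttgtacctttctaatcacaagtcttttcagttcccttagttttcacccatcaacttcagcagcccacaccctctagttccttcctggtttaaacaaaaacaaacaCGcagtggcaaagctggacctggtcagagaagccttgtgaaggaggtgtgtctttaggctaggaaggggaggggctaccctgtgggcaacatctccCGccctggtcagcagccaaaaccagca
The windows lie at chr13:56252181-56252430 for Neurog1 (minus strand), chr6:64728875-64729124 for Atoh1 (plus strand), chr11:98329646-98329895 for Neurod2 (minus strand), chr6:55681264-55681513 for Neurod6 (minus strand) and chr10:130280255-130280504 for Neurod4 (minus strand). They hold 29 CpG at Neurog1, 14 CpG at Atoh1, 11 CpG at Neurod2, 3 CpG at Neurod6 and 2 CpG at Neurod4.

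Over the whole promoter, Neurog2 had the most CpG (6.40 per 100 bases, above 99.2% of 21938 protein-coding genes). Ptf1a (5.27), Neurog1 (5.00) and Atoh1 (4.60) also lay above 95% of genes, at the percentiles 97.5, 96.9 and 95.6. Neurog3 (3.37), Neurod2 (2.93) and Neurod1 (2.37) lay at the percentiles 86.9, 80.7 and 67.9. Neurod6 (1.20) and Neurod4 (0.633) were below the median of 1.80, at the percentiles 28.2 and 13.7. These last genes were also the only 2 of the 9 without an H3K4me3 promoter peak in any library, and the only 2 without an H3K27me3 promoter peak in every library. The order of CpG content and of marks is given as a description over 9 genes.

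**Figure D1:**
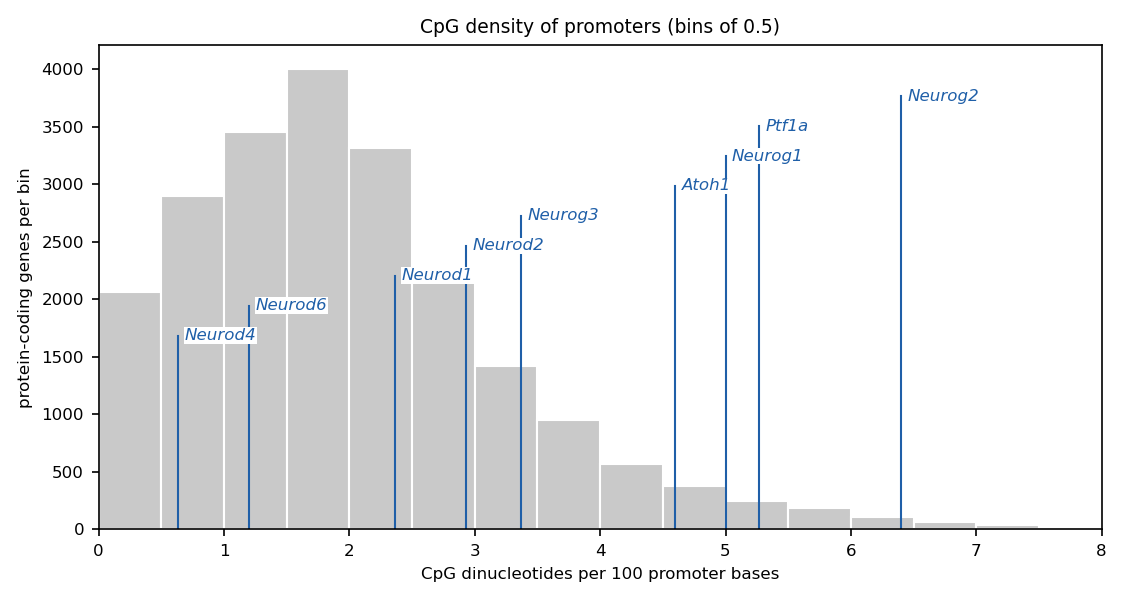
CpG dinucleotides per 100 bases of the promoter (horizontal axis) for all protein-coding genes, counted in bins of 0.5 (grey bars, vertical axis), with each proneural gene marked by a blue line whose height carries no value. Neurod4 and Neurod6 sit below the median of 1.80, and Neurog1, Neurog2, Atoh1 and Ptf1a sit in the upper tail, above 95% of genes.

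E-boxes were searched in the 300-base RefSeq windows, which add 50 bases downstream of the start, on both strands. The general motif CANNTG was present in a window of 6 of the 9 genes and in 72.3% of all 32851 promoter windows. CAGCTG, one form of it, was present at Neurog3 and Neurod4 and in 16.3% of windows, and CAGATG, another form, was present at Neurod2 and in 17.2%. Neurog2, Atoh1 and Ptf1a had no CANNTG in these windows.

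H3K27me3 covered the promoters of most of the family in every culture. A promoter peak was called in all 10 libraries for 7 of the 9 genes (Neurog1, Neurog2, Neurog3, Neurod1, Neurod2, Atoh1 and Ptf1a), against 3.28% of all genes. Neurog2, Neurog3, Atoh1 and Ptf1a were covered over 100% of the promoter in each of the 10 libraries. Neurog2 is a neurogenin of cortical and spinal progenitors, Neurog3 drives endocrine fate in the pancreas, Atoh1 specifies cerebellar granule cells and hair cells, and Ptf1a specifies inhibitory neurons of cerebellum and spinal cord and the exocrine pancreas. Neurod1 and Neurod2, which act later in neuronal differentiation, were covered over 100% in 9 libraries, and over 85.2% and 78.0% in telencephalon control culture 59.

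Neurog1, a neurogenin of sensory and midbrain progenitors, was covered less and more variably than these. In brainstem, coverage was 68.2% and 40.3% in control cultures 59 and 61 and 59.7% and 91.0% in K27M cultures 59 and 61. In telencephalon, it was 27%, 100% and 100% in control cultures 59, 60 and 61 and 98.9%, 100% and 100% in the matching K27M cultures. Its promoter lay partly outside H3K27me3 in all 4 brainstem libraries and wholly within it in telencephalon cultures 60 and 61, and the genotypes overlapped.

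Neurod6, a marker of cortical projection neurons, had H3K27me3 at the promoter in 6 of 10 libraries. All 3 telencephalon controls were covered, over 97.6%, 100% and 100% in cultures 59, 60 and 61. The matching K27M cultures were covered over 0%, 40.3% and 0%. In brainstem, control cultures 59 and 61 were covered over 100% and 0%, and K27M cultures 59 and 61 over 0% and 80.2%. K27M thus lay below control in all 3 telencephalon pairs and in 1 of 2 brainstem pairs. Fold enrichment of the peaks in these 6 libraries ran from 2.40 to 4.77. The −log10 q was 2.79 in telencephalon control culture 59 and 1.80 in telencephalon K27M culture 60. With a −log10 q of at least 3 neither peak was kept, so the telencephalon culture 59 pair then had no peak in either genotype. Neurod4, which takes part in retinal and hindbrain neurogenesis, had a single H3K27me3 peak of 315 bp in brainstem control culture 59, over 10.5% of the promoter, and 0% in the other 9 libraries.

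**Figure D2:**
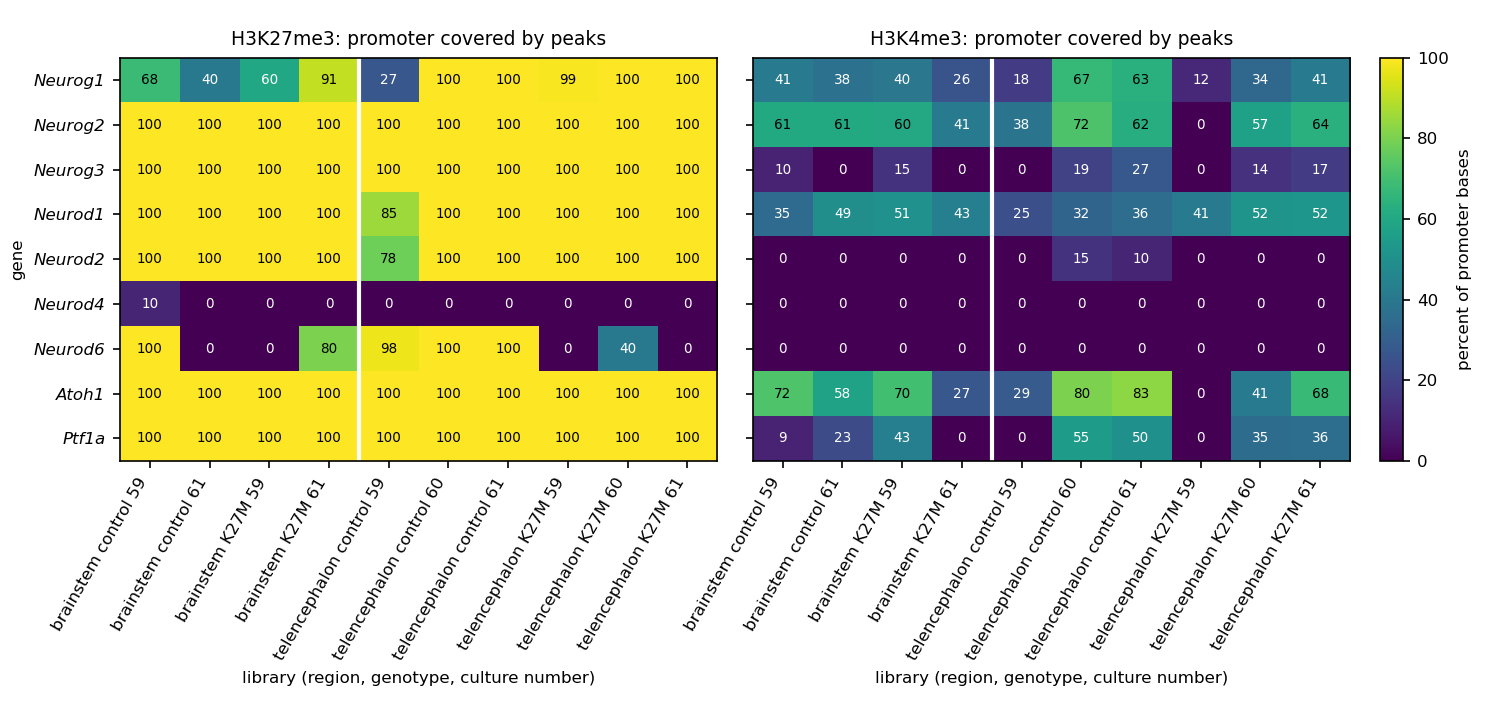
Percent of each promoter covered by H3K27me3 peaks (left) and H3K4me3 peaks (right), with genes in rows, the 10 libraries of each mark in columns and colour from 0 to 100%. H3K27me3 fills the rows of Neurog2, Neurog3, Atoh1 and Ptf1a at 100% in every library, whereas the H3K4me3 rows of Neurod4 and Neurod6 are at 0% throughout.

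H3K4me3 was less constant. Neurog1 and Neurod1 had an H3K4me3 promoter peak in 10 of 10 libraries, which 28.7% of all genes had, Neurog2 and Atoh1 in 9, Ptf1a in 7, Neurog3 in 6 and Neurod2 in 2. Neurod4 and Neurod6 had none in any library. Coverage of Atoh1 was 72.3% and 57.6% in brainstem control cultures 59 and 61 and 28.6%, 80.4% and 83.2% in telencephalon control cultures 59, 60 and 61. Neurog2 was covered over 60.8% in both brainstem controls, and over 38.3%, 71.9% and 62.4% in the telencephalon controls in the same order. Telencephalon culture 59 was the lowest control for both genes, as it was in fold enrichment over all promoters.

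The H3K4me3 peaks were narrow and, except at Neurod2, lay over or beside the start, inside a broader H3K27me3 domain. With negative positions upstream of the start, the highest summit lay between -270 and -47 bp at Neurog1, between -154 and -36 bp at Neurog3, and between -71 and 69 bp at Neurod1. At Atoh1 it lay between -1162 and 480 bp, since part of the libraries had 2 separate peaks, one upstream and one over or next to the start. Of 53 combinations of gene and library with an H3K4me3 promoter peak, 49 had every H3K4me3 base of the promoter under H3K27me3 of the same culture. The 4 others were Neurog1 in brainstem control culture 61 (438 of 1126 bp), brainstem K27M culture 59 (1126 of 1194 bp) and telencephalon control culture 59 (0 of 526 bp), and Neurod1 in telencephalon control culture 59 (294 of 737 bp). Where H3K27me3 covered the whole promoter, every H3K4me3 base there lay under it by construction. That was so except in these 4 and at Neurog1 in brainstem control culture 59, brainstem K27M culture 61 and telencephalon K27M culture 59. The count of 49 therefore mostly restates H3K27me3 coverage. It pools genes and libraries, and the share over all genes was not tested. Both marks in a culture of many cells cannot be told apart from each mark in different cells of it.

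Annotation limits what some of these peaks can be assigned to. Neurod1 (chromosome 2, 79452521 to 79456751, minus strand) starts 34 bp downstream of Cerkl on the same strand, so that peaks at the 2 starts cannot be told apart. Neurog3 (chromosome 10, 62133090 to 62134763, plus strand) lies within Fam241b, which runs on the opposite strand, and Ptf1a (chromosome 2, 19445663 to 19447501, plus strand) overlaps its antisense RNA gene Ptf1aos. Neurog1 (chromosome 13, 56250478 to 56252163, minus), Neurog2 (chromosome 3, 127633135 to 127635631, plus), Neurod2 (chromosome 11, 98325415 to 98329648, minus), Neurod4 (chromosome 10, 130268152 to 130280240, minus), Neurod6 (chromosome 6, 55677822 to 55681263, minus) and Atoh1 (chromosome 6, 64729125 to 64731245, plus) overlap no other annotated gene.

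**Figure D3:**
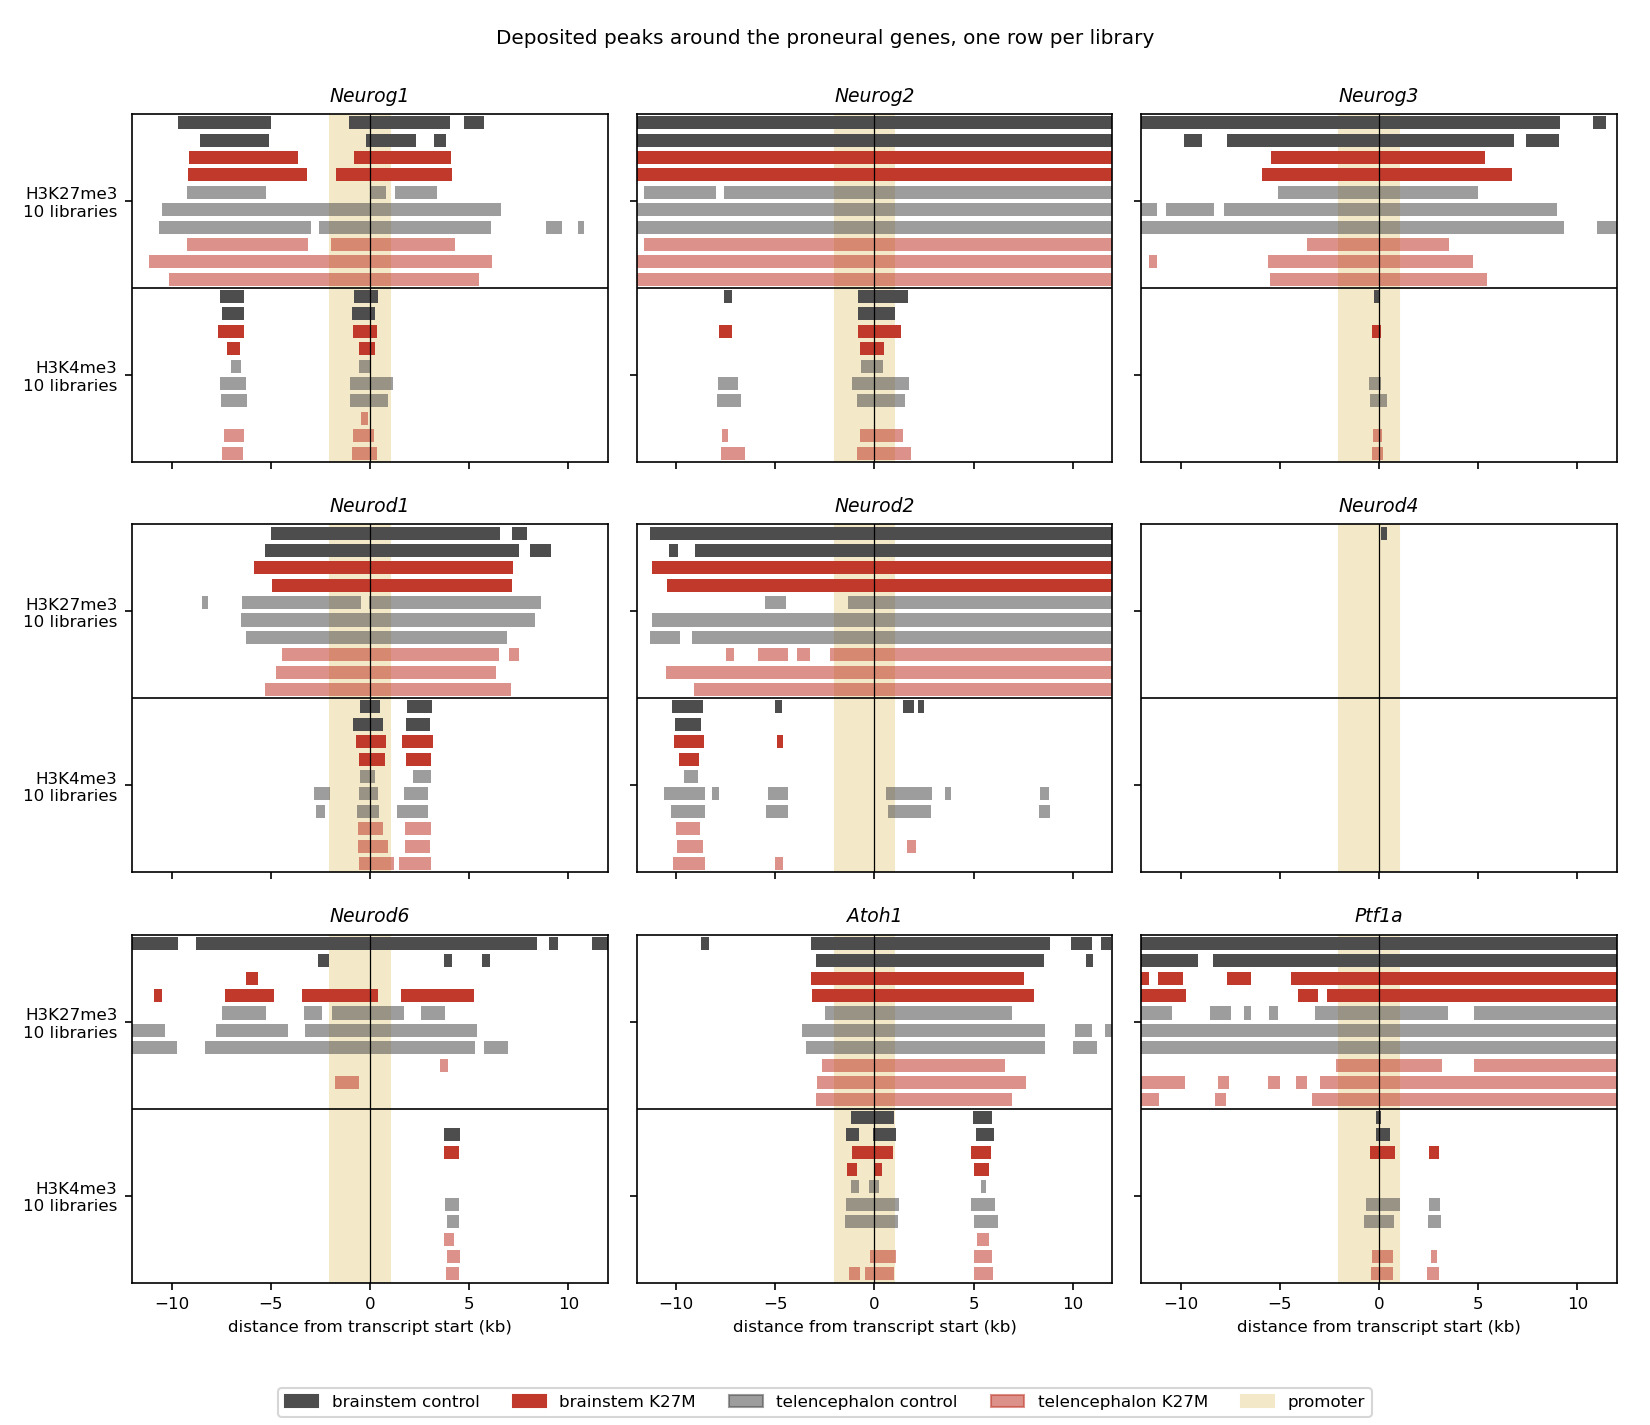
Deposited peaks from 12 kb upstream to 12 kb downstream of the transcript start (horizontal axis, distance in kb along the gene's strand), with 1 row per library, H3K27me3 in the upper 10 rows and H3K4me3 in the lower 10, and the promoter shaded. Within each mark the rows run from brainstem control and brainstem K27M to telencephalon control and telencephalon K27M; peaks are cut at the plot's edge, and Atoh1 shows H3K27me3 across the promoter in every row with a second H3K4me3 peak around 5557 bp downstream.

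Control promoters were then classed by peaks shared between cultures, where a consensus peak needed overlapping peaks in at least 2 control cultures of a region. Each peak also had to reach a weak p-value threshold, 1e-06 for H3K4me3 and 1e-04 for H3K27me3. The overlap could lie anywhere along the peaks, so the class did not require 2 cultures with a peak at the promoter itself. In brainstem, 4 of the 9 genes were bivalent (Neurog1, Neurog2, Neurod1 and Atoh1), against 4.59% of all genes. Neurog3, Neurod2, Neurod6 and Ptf1a had H3K27me3 only and Neurod4 was unmarked. Neurod6 had a promoter peak in culture 59 alone, from -8.80 to 8.42 kb, and it was kept because a culture 61 peak 3.73 to 4.15 kb downstream (−log10 p 4.12) overlapped it. Ptf1a had an H3K4me3 promoter peak in both brainstem controls, but that of culture 59, with a −log10 p of 5.66, missed the weak threshold. In telencephalon, 7 were bivalent, against 7.30% of all genes, the 3 further ones being Neurog3, Neurod2 and Ptf1a. Neurod6 had H3K27me3 only and Neurod4 was again unmarked.

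The 3 genes with another class in telencephalon differed in H3K4me3 alone. Ptf1a was covered by H3K4me3 over 9.40% and 23.3% in brainstem control cultures 59 and 61, and over 0%, 55.3% and 50.4% in telencephalon control cultures 59, 60 and 61. Neurog3 was covered over 9.56% and 0% in brainstem controls and over 0%, 19.4% and 27.4% in telencephalon controls. Neurod2 was covered in telencephalon control cultures 60 and 61 alone, over 14.5% and 10.3%, by a peak with its summit 1164 and 1175 bp downstream of the start. These summits lay beyond the promoter, so only the edge of the peak was counted. In the same stretch, H3K4me3 peaks outside the promoter ran from 1.415 to 1.996 kb in brainstem control culture 59. In telencephalon K27M culture 60 such a peak ran from 1.636 to 2.096 kb. The region ranges overlapped for all 3 genes, and without telencephalon culture 60 or culture 61 the telencephalon count fell from 7 to 4 bivalent genes. The requirement of 2 supporting cultures was also met by 2 of 3 cultures in telencephalon but only by 2 of 2 in brainstem, so the counts are not on equal footing.

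The test between regions passed for none of the 9 genes. Over both genotypes, the H3K4me3 coverage of Ptf1a was 10.5 percentage points higher in telencephalon than in brainstem (means 29.5% and 19.0%; exact permutation p = 0.52 within genotype, adjusted p = 1 over 20007 genes). That of Neurog3 was 7.03 points higher (exact permutation p = 0.38, adjusted p = 1), and the H3K27me3 coverage of Neurog1 was 22.9 points higher (exact permutation p = 0.18, adjusted p = 1 over 14153 genes). The 6 telencephalon libraries lay outside the range of the 4 brainstem libraries for none of the 9 genes in either mark, and for 0.440% of genes in H3K4me3 and 0.382% in H3K27me3. No gene passed the adjusted test for either mark, while 412 genes for H3K4me3 and 198 for H3K27me3 had an unadjusted exact permutation p under 0.05.

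In K27M cultures H3K27me3 was still called at the same 7 promoters. All 7 genes with an H3K27me3 peak in every control library also had one in every K27M library, whereas 61.4% of the 2964 genes with a peak in every control library did. H3K27me3 coverage was lower in K27M in 5 of 5 pairs for none of the 9 genes, against 10.5% of 14153 genes. It was lower in at least 4 of 5 pairs for Neurod6 alone, against 26.3%. The mean difference, K27M minus control, had a median of 0 percentage points over the 9 genes and of -9.01 over all genes tested; 4 of the 9 were at 100% in every library, where promoter coverage cannot show a difference. Over 10 kb on both sides of the start, coverage was lower in K27M in 5 of 5 pairs for 3 of the 9 genes, against 16.5% of 22845 genes. These were Neurog3 (-32.2 ± 12.8 points, SD, n = 5), Ptf1a (-23.9 ± 5.38) and Atoh1 (-6.23 ± 4.75), each with an exact sign-flip p of 0.0625 and an adjusted p of 0.369. The median over this window was -6.23 points for the 9 genes and -4.57 for all covered genes.

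Among the 9 genes the mean difference in coverage was largest at Neurod6. The mean was 79.5% in control and 24.1% in K27M cultures, a difference of -55.4 ± 77.7 percentage points (SD, n = 5 pairs; two-sided exact sign-flip p = 0.1875, adjusted p = 0.581). Brainstem culture 61 ran against the other 4 pairs. At Neurog1 the mean was lower in control, 67.1% against 89.9% in K27M (22.8 ± 36.1 points, SD, n = 5; exact sign-flip p = 0.5, adjusted p = 0.780), with 2 pairs higher, 1 lower and 2 at 100% in both. With 5 pairs the smallest p this test can give is 0.0625, and the smallest adjusted p over all genes was 0.497. By the unpaired exact permutation, 975 of 14153 genes had an unadjusted p under 0.05 and none passed after adjustment (smallest adjusted p 0.308). Consensus classes in K27M cultures were the same as in controls for 7 genes in telencephalon and 8 in brainstem. Neurod6 was unmarked in K27M in both regions, and Neurod2 had H3K27me3 only, in place of both marks, in telencephalon. The Neurod2 class rested on the promoter's downstream end, since telencephalon K27M culture 60 had an H3K4me3 peak from 1.636 kb downstream, outside it. In brainstem 1 of 2 cultures of each genotype had H3K27me3 at the Neurod6 promoter, so the class differed there through the overlap rule and not through the number of promoter peaks.

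The H3K27me3 peaks that were called had higher fold enrichment in K27M at 5 of the 7 genes in every pair. The exact sign-flip test could give no p under 0.0625. Fold enrichment was not scaled to the Drosophila chromatin that the study added as a spike-in. It compares a peak with the input of its own library and does not measure amounts of H3K27me3 between genotypes. The broad peak lists give 1 value for a whole peak, and the highest value among the peaks touching the promoter was taken. It therefore also covers bases outside the promoter and can depend on where the peak ends. The part of peak length in fold enrichment and its rank was not tested. Atoh1 had a highest fold enrichment over input of 8.67 and 9.24 in brainstem control cultures 59 and 61, and of 23.9 and 30.4 in the matching K27M cultures. In telencephalon cultures 59, 60 and 61 it was 4.41, 16.1 and 9.53 in control and 8.58, 24.7 and 26.7 in K27M. All 5 pairs were higher in K27M, by 2.38-fold on average (log2 ratio 1.25 ± 0.45, SD, n = 5; exact sign-flip p = 0.0625, adjusted p = 0.125 over 1820 genes with a peak in all 10 libraries). Ptf1a (2.10-fold), Neurog2 (1.96-fold), Neurog1 (1.91-fold) and Neurod2 (1.90-fold) were also higher in 5 of 5 pairs, with the same exact sign-flip p. Neurog3 was higher in 4 of 5 pairs (1.25-fold) and Neurod1 in 3 (1.20-fold).

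Many of the other genes with a peak in all 10 libraries showed the same direction. Fold enrichment was higher in K27M in 5 of 5 pairs for 5 of these 7 genes and for 46.4% of the 1820 genes, and lower in 5 of 5 for none of the 7 and for 3.68%. The median log2 ratio was 0.93 over the 7 genes (1.91-fold) and 0.43 over the 1820 (1.34-fold). Fold enrichment depends on the library as well as on the gene, so each gene was also ranked within its library among those 1820 genes.

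By rank, the difference was largest at Neurog1. It ranked at the percentiles 1.87 and 3.57 in brainstem controls and 26.9 and 21.5 in the matching K27M cultures. In telencephalon cultures 59, 60 and 61 it ranked at 1.21, 38.3 and 16.5 in control and 60.1, 69.6 and 53.8 in K27M. The mean difference was 34.1 ± 15.6 rank points (SD, n = 5; exact sign-flip p = 0.0625, adjusted p = 0.316), and within each region every K27M culture ranked above every control culture. The peaks compared were not always alike in extent. In telencephalon control culture 61 the promoter peak (-2.59 to 6.09 kb) lay beside a separate upstream peak (-10.7 to -2.99 kb). In the matching K27M culture 1 peak ran from -10.1 to 5.48 kb. Its part in the rank was not tested. Ptf1a ranked 7.85 ± 3.93 and Atoh1 1.40 ± 1.07 points higher in K27M, also in 5 of 5 pairs. Atoh1 already ranked between the percentiles 83.6 and 92.4 in the controls, so its rank had little room to rise. Ranks were higher in 5 of 5 pairs for these 3 of 7 genes and for 10.8% of the 1820, and lower in 5 of 5 pairs for none of the 7 and for 8.96%. Neurog2 (-0.31), Neurod1 (-1.21), Neurog3 (-2.90) and Neurod2 (-5.90 rank points) had mixed signs over the pairs.

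**Figure D4:**
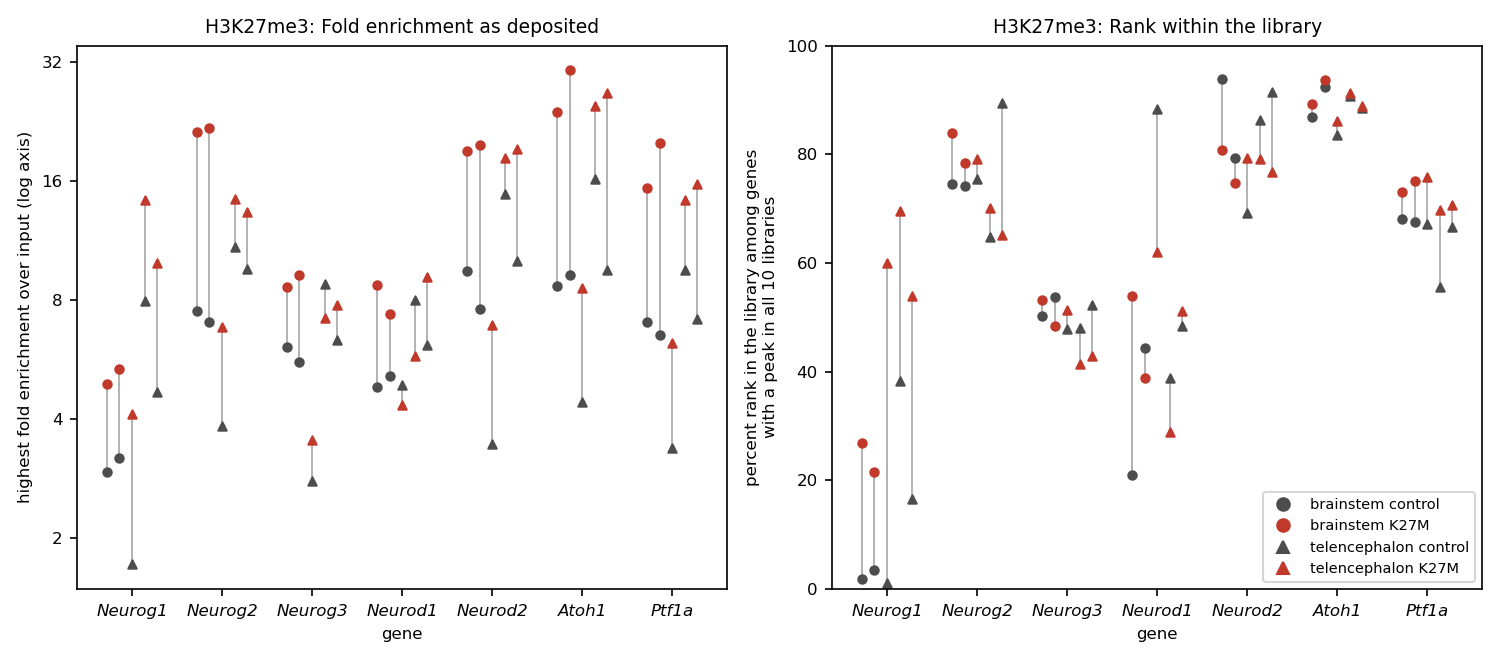
Highest H3K27me3 fold enrichment over input among the peaks touching the promoter, 1 value per whole peak, on a log axis (left) and its percent rank within the library (right) for the 7 genes with a promoter peak in all 10 libraries; each grey line joins the control (dark) and K27M (red) culture of 1 pair, with brainstem as circles and telencephalon as triangles. Atoh1 is higher in K27M in every pair by fold enrichment but differs by 1.40 rank points on average, from control ranks of 83.6 to 92.4 that leave little room to rise. Neurog1 is higher in K27M in every pair of both panels.

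H3K27me3 peaks at 3 of the 7 promoters were shorter in K27M in every pair, where the exact sign-flip test could give no p under 0.0625. The peaks that touched the Ptf1a promoter measured 50.0 and 26.4 kb in brainstem control cultures 59 and 61, and 18.8 and 19.3 kb in K27M. In telencephalon cultures 59, 60 and 61 they measured 6.70, 45.0 and 57.1 kb in control and 5.35, 15.7 and 17.1 kb in K27M. All 5 K27M cultures were shorter (log2 ratio -1.09 ± 0.65, SD, n = 5; exact sign-flip p = 0.0625, adjusted p = 0.133). Peaks that did not touch the promoter were left out of this length. Such upstream peaks ran from -19.7 to -11.6 kb in brainstem K27M culture 59 and from -18.9 to -11.1 kb in telencephalon K27M culture 61. Brainstem control culture 61 also had one, from -23.7 to -9.12 kb. A shorter peak can therefore be part of a split domain, and the shortening does not measure how much of the domain was lost. Neurog3 (-0.67) and Atoh1 (-0.15) were also shorter in 5 of 5 pairs, which 46.3% of the 1820 genes were. Neurog1 ran the other way, with longer peaks in K27M in 4 of 5 pairs (log2 ratio 1.00 ± 1.22, SD, n = 5; exact sign-flip p = 0.1875, adjusted p = 0.267). In telencephalon culture 61 its peak measured 8.68 kb in control and 15.6 kb in K27M, where it took in an upstream domain that was a separate peak in control. Atoh1 had a domain of 9.27 to 11.2 kb in K27M against 9.43 to 12.3 kb in control. The median log2 ratio of length was -0.16 over the 7 genes and -0.52 over the 1820, and H3K27me3 peaks also covered fewer bases of the genome in every K27M library than in its matched control.

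H3K4me3 coverage was lower in K27M at Atoh1 and Neurog1 in every pair. The Atoh1 promoter was covered over 69.7% and 27.2% in brainstem K27M cultures 59 and 61, and over 0%, 41.0% and 67.9% in telencephalon K27M cultures 59, 60 and 61. The difference from control was -23.3 ± 14.4 percentage points (SD, n = 5; exact sign-flip p = 0.0625, adjusted p = 0.869 over 20007 genes). At Neurog1 coverage in brainstem was 41.1% and 37.5% in control cultures 59 and 61 and 39.8% and 25.9% in K27M. In telencephalon it was 17.5%, 67.1% and 63.5% in control cultures 59, 60 and 61 and 11.5%, 33.9% and 41.0% in K27M, a difference over all pairs of -15.0 ± 12.9 points (SD, n = 5; exact sign-flip p = 0.0625, adjusted p = 0.869). The ranges of the genotypes overlapped for both genes. These were 2 of the 7 genes with any H3K4me3 coverage, and 0.650% of all covered genes were lower in 5 of 5 pairs.

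Neurog2 was lower in 4 of 5 pairs (-14.5 ± 16.1 points, SD, n = 5; exact sign-flip p = 0.1875), and in telencephalon K27M culture 59 it had no peak. With it, 3 of 7 genes were lower in at least 4 pairs, against 6.66% of genes. Neurod1 was higher in 4 of 5 pairs, with means of 35.4% in control and 47.8% in K27M (12.5 ± 10.5 points, SD, n = 5; exact sign-flip p = 0.125, adjusted p = 0.869). Of the 4 genes with an H3K4me3 peak in every control library, 2 (Neurog1 and Neurod1) kept one in every K27M library, against 99.3% of genes; Neurog2 and Atoh1 lacked it in telencephalon culture 59. The paired test could give no p under 0.0625, so no gene could pass it. By the unpaired exact permutation 505 of 20007 genes had an unadjusted p under 0.05 and none passed after adjustment (smallest adjusted p 1).

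The enrichment of the H3K4me3 libraries also differed within pairs. The median highest fold enrichment at promoters was 60.9 and 49.4 in telencephalon control cultures 60 and 61 and 32.2 in both matching K27M cultures, while in culture 59 it was 4.09 in control and 6.48 in K27M. In brainstem it was 17.8 and 11.7 in control and 20.4 and 12.4 in K27M, so 3 of the 5 pairs had the higher value in K27M. Its part in the coverage differences was not tested.

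**Figure D5:**
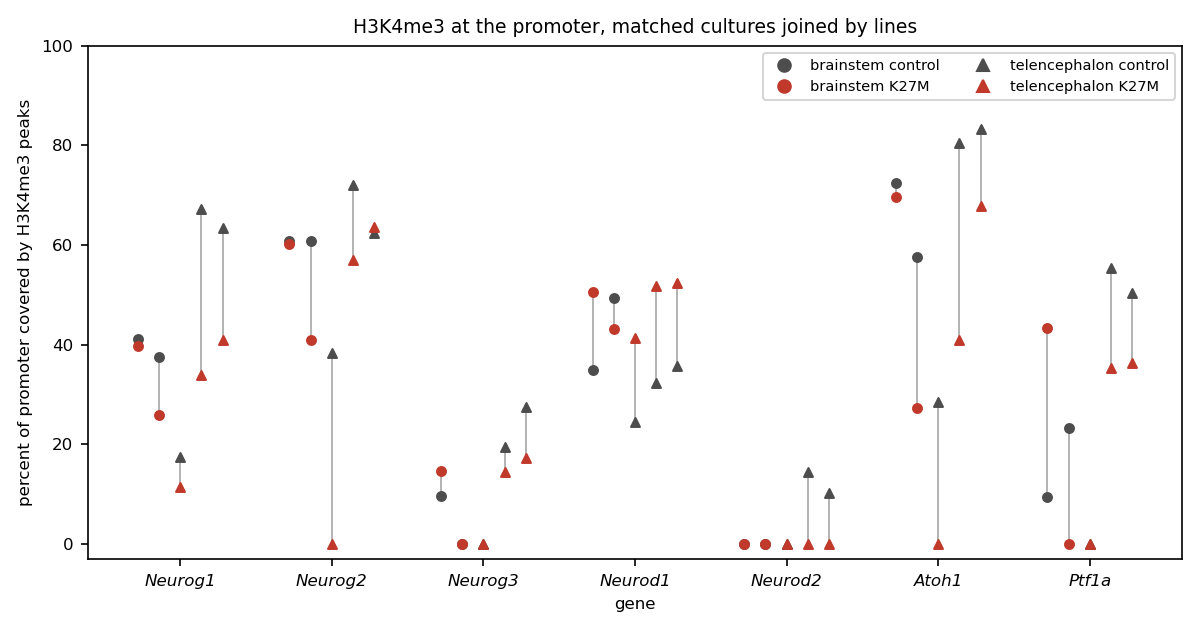
Percent of the promoter covered by H3K4me3 peaks (vertical axis) in the 7 genes with any such peak; each line joins the control (dark) and K27M (red) culture of 1 matched pair, with brainstem as circles and telencephalon as triangles. Atoh1 and Neurog1 are lower in K27M in all 5 pairs, and Neurod1 is higher in 4 of 5.

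H3K4me3 peaks also recurred outside the promoters, within 10 kb of the start. At Atoh1 a peak with its summit 5515 to 5665 bp downstream of the start was called in 10 of 10 libraries (chromosome 6, 64733999 to 64735360), beyond the 3′ end of the gene and in no annotated gene. Its fold enrichment was 13.8 and 7.81 in brainstem controls and 10.7 and 2.76 in the matching K27M cultures. In telencephalon cultures 59, 60 and 61 it was 1.93, 42.2 and 21.5 in control and 2.48, 16.8 and 10.3 in K27M, so 4 of the 5 pairs were lower in K27M. Atoh1 is known to have an autoregulatory enhancer 3′ of the gene, and whether the peak lies on it was not tested. The H3K27me3 domain of Atoh1 reached 6.60 kb or more downstream in every library and so included this site.

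At Neurod1 a second peak 2494 to 2726 bp downstream was present in 10 of 10 libraries, at fold enrichments from 3.97 to 17.1 (chromosome 2, 79453589 to 79455382). The noncoding RNA gene Gm26755 starts within it, on the opposite strand. At Neurod2 a peak about 9.1 kb upstream was present in 10 libraries (2.47 to 86.6), where no annotated gene starts, whereas the promoter itself had a peak in 2. Neurog1 had a peak about 6.9 kb upstream in 9 libraries, Neurog2 one about 7.5 kb upstream in 6, and Ptf1a one about 2.8 kb downstream in 5. Neurod6, which had no H3K4me3 promoter peak, had one about 4.1 kb downstream, past its 3′ end, in 7 libraries, of which 4 were K27M. Sites near the genes were picked after the peaks had been seen.

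The other genes of the pathway showed where the family differed from its partners. The E-protein genes Tcf3, Tcf4 and Tcf12, whose products dimerize with proneural factors, had H3K4me3 and no H3K27me3 promoter peak in all 10 libraries. Of 11 other neural bHLH genes, Olig1 and Olig2, which act in OPCs, had H3K4me3 in 10 libraries and H3K27me3 in none. H3K27me3 was called in all 10 libraries for 6 of the 11 (Atoh8, Bhlhe22, Bhlhe23, Olig3, Nhlh2 and Ferd3l), against 3.28% of all genes. In controls, 2 of the 11 were bivalent in brainstem and 6 in telencephalon, against 4.59% and 7.30% of all genes. Those bivalent in telencephalon alone were Bhlhe23, Olig3 and Ferd3l, with H3K27me3 only in brainstem, and Atoh7, with H3K4me3 only there. Atoh7, the retinal relative of Atoh1, carried H3K27me3 in 3 control libraries but 0 of the 5 K27M libraries, and Nhlh1 in 2 and 0.

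Of 9 inhibitor genes, 8 had H3K4me3 in all 10 libraries (all but Hes3, in 7), against 28.7% of all genes. H3K27me3 was called in all 10 for 1 of the 9 (Hey2), against 3.28% of all genes. Hes3 had H3K27me3 in all 5 control libraries and in 2 K27M libraries, Id4 in 3 and 1, Id1 in 4 and 3, and Id3 in 2 and 0. Id2 and Hey1 had it in 1 control library each, and Hes1 and Hes5 in none. Control promoters of 2 inhibitors in brainstem (Id4 and Hey2) and 4 in telencephalon (these with Id1 and Hes3) were bivalent, against 4.59% and 7.30% of all genes. H3K27me3 coverage was lower in 5 of 5 pairs for 2 of the 9, against 10.5% of 14153 genes. The median difference was -14.8 points, against 0 for the proneural genes and -9.01 for all genes.

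Of 17 target genes, 9 were bivalent in brainstem and 8 in telencephalon controls, against 4.59% and 7.30% of all genes. H3K27me3 was called in all 10 libraries for 7 of the 17 (Eomes, Tbr1, Ebf1, Ebf2, Ebf3, Cbfa2t3 and Stmn2), against 3.28% of all genes. Eomes, a factor of intermediate progenitors, and Ebf2 were covered over 100% in both genotypes on average. Insm1, a zinc-finger factor of newborn neurons, had H3K27me3 in 4 of 4 brainstem and 0 of 6 telencephalon libraries, and was bivalent in brainstem only. Elavl4 carried H3K27me3 in 4 control libraries but 0 of the 5 K27M libraries, and Dcx and Dll3 each in 2 and 0. Mfng had H3K27me3 in none of the 10. By consensus class, Dcx was unmarked in telencephalon controls and Mfng in brainstem controls. Single libraries still had peaks at Dcx, with H3K27me3 at the promoter in 2 of 3 telencephalon controls. H3K27me3 coverage was lower in 5 of 5 pairs for 3 of the 17, against 10.5% of 14153 genes.

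By the profile of highest fold enrichment over all 20 libraries, the protein-coding genes nearest to the family's median profile included Mixl1, Lox, Rnf207 and Trim47. Their Euclidean distances on the log2(fold enrichment + 1) scale ran from 1.14 to 1.45. Each had an H3K27me3 promoter peak in 10 and an H3K4me3 promoter peak in 7 libraries. Among the 9 genes Ptf1a was nearest to the median (1.57, with 7 protein-coding genes nearer), followed by Neurog3 (2.76, 65 nearer). Neurog2, Atoh1, Neurog1, Neurod1 and Neurod2 lay from 4.53 to 5.98 away, and Neurod6 (10.6) and Neurod4 (12.5) were farthest, so the 9 genes did not form 1 tight group.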

How the data were processed

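Reads were mapped to mm10 by the authors with BWA 0.7.17-r1188, and MACS2 2.2.7.1 called peaks, each library having its own input as background. Calls were narrow for H3K4me3 and broad for H3K27me3, and the spike-in was not used for them. The deposited lists hold fold enrichment (a ratio over input), −log10 p and −log10 q values, and a score that the authors' caller wrote, which was not used. The 20 input samples were not analysed here.

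Peaks were placed on GENCODE M21 promoters, and the percent of bases covered, highest fold enrichment and peak length were taken per library. Fold enrichment of a broad H3K27me3 peak was 1 value for the whole peak. Consensus peaks needed overlapping peaks in 2 cultures, each with p at most 1e-06 for H3K4me3 and 1e-04 for H3K27me3. Fisher's combined p of the overlapping peaks had to be at most 1e-10 and 1e-08, respectively. Genotypes were compared by two-sided exact sign-flip tests over 5 pairs (32 arrangements) and regions by two-sided exact permutation within genotype (100 arrangements), with Benjamini-Hochberg adjustment over all covered genes. Pairing followed the study's methods; across genes, deviations of same-numbered cultures correlated at -0.057 (H3K4me3) and -0.038 (H3K27me3) in brainstem and at 0.325 to 0.635 and -0.194 to 0.469 in telencephalon. List genes were named where the control class differed between regions, where H3K27me3 was present in at least 2 more or fewer K27M libraries, or where a class held at most 5 genes; the 5 nearest profiles were named too, except that some genes are not reported here. The proneural genes and lists were chosen with earlier results of these data known; fold enrichment, its rank and peak length were compared after the data had been seen. Code was tested on simulated data.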

Additional observations from a re-analysis of the deposited data

How the results depend on the processing

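The 7 genes with an H3K27me3 promoter peak in every K27M library stayed 7 under each alternative run (stricter q, fold enrichment of at least 3, a shorter promoter, coding transcripts, 500 bp of overlap, each culture left out). The telencephalon count of 7 bivalent genes became 4 when a peak was required in every control culture, and ran from 4 to 7 with 1 culture left out; the brainstem count of 4 ran from 3 to 5, and could not be computed with 1 brainstem culture. Without the matched-pair block, the mean K27M minus control coverage over the 9 genes was -2.42 points for H3K27me3 and -5.19 for H3K4me3 (-3.04 and -5.77 with it), mean log2 fold enrichment 0.87 (0.82 with it) and mean log2 peak length -0.22, and no call changed. With peaks of fold enrichment of at least 3, the H3K27me3 mean was 2.81; over 10 kb on both sides it was -11.3, and with 1 culture left out it ran from -7.44 (without brainstem culture 61) to -0.49 (without brainstem culture 59). Signs turned for some single genes, none of them past a threshold, and the cause was not tested. For H3K27me3 between regions (telencephalon minus brainstem), Neurod6 became -11.7 with stricter q and with fold enrichment of at least 3, and -6.62 over 10 kb on both sides, where Neurod1 became 0.80; there, Neurod1 also became -8.93 for K27M minus control. For H3K4me3 between regions, Neurog1 became -1.84 with fold enrichment of at least 3 and -0.41 over 10 kb, where Neurog2 became 1.60 and Neurod1 0.51. With 1 culture left out, Neurog1 ran from -3.57 to 15.3, Neurog2 from -14.7 to 8.00 and Atoh1 from -20.8 to 11.4, and Neurog3 for K27M minus control from -3.80 to 0.024. Read depth is not in the peak lists. The study's reporting summary lists more ChIP reads for telencephalon culture 59 than for any other culture, for each mark and genotype. Absence of a peak in libraries with few peaks, this culture above all, limits what a loss can show. The part of depth was not tested.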
